A study of Mus musculus with 16 samples.

Results

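Flavin-containing monooxygenases (FMOs) are NADPH-dependent enzymes of the endoplasmic reticulum that use a bound flavin to add an oxygen atom to soft nucleophiles such as amines and sulfides. In the liver this family turns trimethylamine (TMA), which gut bacteria make from choline, into trimethylamine N-oxide (TMAO), and it also oxidizes many drugs and dietary amines. The members differ in what they accept. FMO1 can oxygenate TMA, FMO2 is best known from lung, FMO4 is little characterized, and FMO5 acts on few classical FMO substrates and is known for Baeyer-Villiger oxidation of ketones.

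The 4 genes described here, Fmo1, Fmo2, Fmo4 and Fmo5, were chosen by symbol among the 24082 genes of the liver RNA sequencing table, and each had 1 gene identifier there. The table covers livers of female C57BL6/J mice, 9 to 11 weeks old, in 4 groups of 4 libraries. Mice of the Pair Vehicle and Pair IMC groups received an isocaloric control liquid diet, and mice of the EtOH Vehicle and EtOH IMC groups received a liquid diet with ethanol raised in steps to 6% by volume, for 25 days in all. IMC is iodomethylcholine, a small molecule inhibitor of the bacterial choline TMA lyase CutC, given in the diet at 0.06% by weight. The design asks how blocking bacterial TMA production and chronic ethanol each changed the liver, and whether the IMC effect depended on the diet. Mice that received IMC with ethanol also ate less and weighed less according to the study, so that food intake and the combined treatment cannot be told apart. The study also marks a body weight difference between pair-fed mice with and without IMC. There too, body weight and IMC cannot be told apart. The labels give no animal identifiers, and p-values below measure the spread between these libraries. In bulk liver RNA, fewer cells of a type and less RNA per cell cannot be told apart.

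Libraries held 9632659 to 12601199 reads. Deposited values sat 0.19 higher on the log2 scale in ethanol-fed libraries for the median gene, and all values below (normalized read counts) were therefore rescaled over the 16 libraries. All 6 hepatocyte markers had reads, and their summed level ranged from 859334 to 1678768 normalized counts. Markers of other organs were near 0. The lung markers Sftpc and Scgb1a1 summed to at most 1.70 normalized counts in any library, with Scgb1a1 at 0 in all, and the kidney markers Umod and Slc34a1 to at most 1.96. Fmo2 is known from lung and Fmo1 from kidney.

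Fmo1 (ENSMUSG00000040181), Fmo2 (ENSMUSG00000040170) and Fmo4 (ENSMUSG00000026692) lie close together on the minus strand of chromosome 1 in GRCm38. Fmo4 spans chr1:162793188-162813972, Fmo1 spans chr1:162829561-162866610 and Fmo2 spans chr1:162874317-162898726, with 15.6 kb between Fmo4 and Fmo1 and 7.71 kb between Fmo1 and Fmo2. Fmo5 (ENSMUSG00000028088) is apart from them, on the plus strand at chr3:97628804-97655282. No annotated gene overlapped any of the 4.

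The start of the coding sequence shows the kinship of these genes. The first 84 coding bases of Fmo2, Fmo4 and Fmo5, read from GENCODE transcripts of GRCm38, are printed with the 3 glycine codons of the flavin-binding motif in capitals. The pattern searched was 3 glycine codons (GGN) in frame, with 1 codon between the first and the second and 2 between the second and the third, and it occurred once in the first 40 codons of each of the 3.
Fmo2, chr1:162898222-162898305, minus strand: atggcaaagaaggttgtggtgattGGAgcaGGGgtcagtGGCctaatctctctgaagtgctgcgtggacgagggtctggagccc
Fmo4, chr1:162809838-162809921, minus strand: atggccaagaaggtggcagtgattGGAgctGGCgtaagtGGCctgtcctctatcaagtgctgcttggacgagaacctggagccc
Fmo5, chr3:97629061-97629144, plus strand: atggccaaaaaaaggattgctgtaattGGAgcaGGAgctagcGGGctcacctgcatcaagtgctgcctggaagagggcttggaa
The motif began at codon 9 in Fmo2 and Fmo4 and at codon 10 in Fmo5, which has 1 more codon before it. The coding sequences hold 535, 560 and 533 codons for Fmo2, Fmo4 and Fmo5. Over the whole coding sequence the 3 pairs were identical at 63.5% to 65.1% of aligned bases, highest for Fmo2 and Fmo4.

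Despite this kinship, no 31-base word of their transcripts was shared between any of the 4 genes, so that no read of 31 bases or more matches 2 of them exactly. Fmo1 shared 396 of its 6314 distinct words (6.27%) with genes outside the group. This is a share of words and not of reads, and its bearing on the Fmo1 count was not tested. The share was 0.473% for Fmo5, 0.0355% for Fmo2 and 0 for Fmo4.

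Fmo5 was the most abundant member and Fmo4 the least. Per kilobase of exon, the order Fmo5, Fmo1, Fmo2, Fmo4 held in 16 of 16 libraries. Averaged over all libraries, Fmo5 reached 1670 ± 524 normalized reads per kilobase (SD, n = 16), above 97.7% of tested genes on that scale. Fmo1 reached 641 ± 87.1, Fmo2 143 ± 21.1 and Fmo4 66.3 ± 15.96. Fmo4 was still above 61.8% of the 12532 tested genes with an exon length, so that all 4 were measured well above the detection limit, with 155 reads or more for each in every library.

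**Figure D1:**
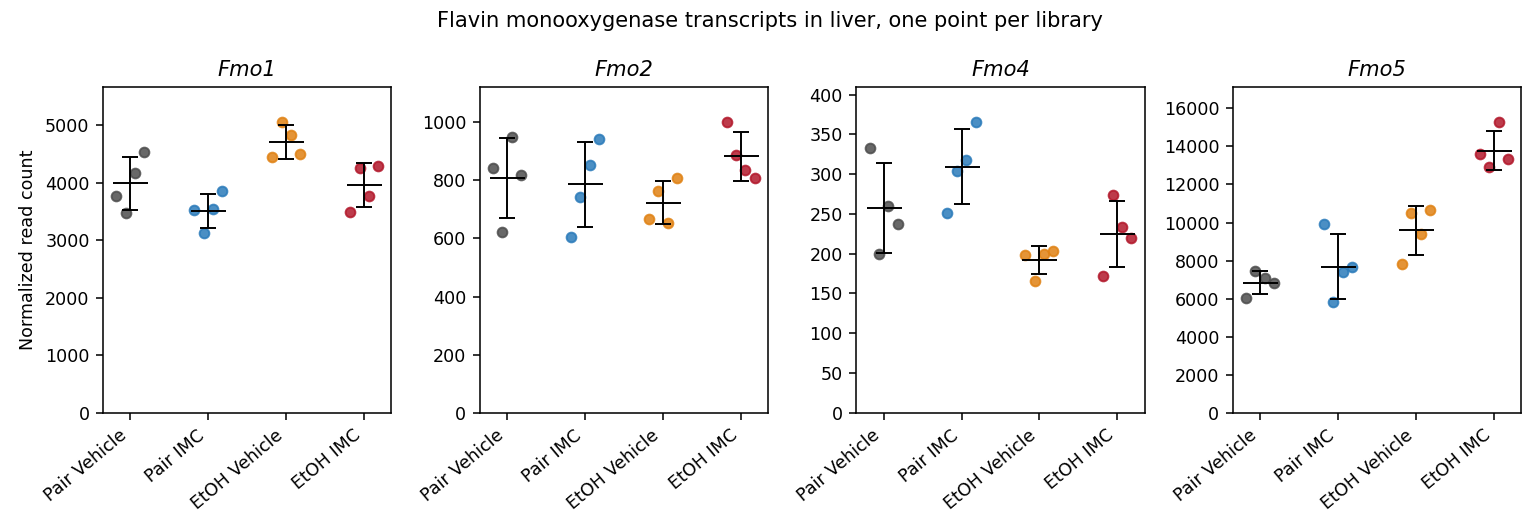
Normalized read counts of Fmo1, Fmo2, Fmo4 and Fmo5 (linear axes from 0) in the 4 groups, 1 point per library, with a horizontal bar for the mean and whiskers for the SD (n = 4). The 4 EtOH IMC libraries of Fmo5 lie between 12932 and 15275, above the 12 other libraries, whereas the groups of Fmo2 overlap throughout.

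Fmo5 transcript rose with ethanol in Vehicle mice and in IMC mice, and it rose with IMC in ethanol-fed mice. Its normalized counts were 6015, 7462.5, 7071 and 6805 in Pair Vehicle and 7835, 10478, 9382 and 10669 in EtOH Vehicle. Every EtOH Vehicle library was above every Pair Vehicle library, though the lowest was close to the highest control. The group means were 6839 ± 612 and 9591 ± 1301 (SD, n = 4), a log2 fold change of 0.48 (SE 0.14, 95% confidence interval 0.19 to 0.77, adjusted p = 0.0302, limma on log2(normalized count + 1) with Benjamini-Hochberg adjustment over 12537 genes). Fmo5 was the 1 member of 4 called in this comparison, in which 6.33% of all tested genes were called higher and 9.92% were higher with no overlap between groups. Over all genes 794 were called higher and 694 lower, and 2801 and 199 on the deposited scale, which raises all ethanol-fed libraries. The call is a narrow one. Leaving out any of 6 libraries (Pair Vehicle 10, 14 or 16, or EtOH Vehicle 3, 5 or 7) raised the adjusted p above 0.05, up to 0.0863. Over all 16 libraries left out in turn, the log2 fold change ran from 0.42 to 0.58.

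The same comparison was made in mice that received IMC. The Pair IMC libraries gave 9904, 5798, 7395 and 7653 normalized counts, and the EtOH IMC libraries 13612, 12932, 15275 and 13315. The first set is the most scattered of any member and group, with a coefficient of variation of 22.0%, and the highest of its libraries lay above the lowest EtOH Vehicle value. Still, all 4 EtOH IMC libraries were above all 4 Pair IMC libraries. The means were 7687 ± 1690.3 and 13783.5 ± 1032, a log2 fold change of 0.87 (SE 0.14, 95% confidence interval 0.58 to 1.15, adjusted p = 0.000577, limma), or 1.82-fold. Here too Fmo5 was the 1 member called, where 7.86% of tested genes were called higher and 9.35% were higher without overlap. The split over all genes was 985 higher and 1075 lower, and 3183 and 441 on the deposited scale. Over both treatments Fmo5 was 1.60-fold higher with ethanol (log2 fold change 0.67, SE 0.10, adjusted p = 0.00012, limma).

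IMC went with more Fmo5 transcript in ethanol-fed mice. The EtOH IMC libraries lay above all EtOH Vehicle libraries, with a log2 fold change of 0.53 (SE 0.14, 95% confidence interval 0.24 to 0.82, adjusted p = 0.0109, limma), or 1.44-fold. Fmo5 was again the 1 of 4 members called, where 10.4% of tested genes were called higher and 12.3% were higher without overlap. In pair-fed mice the libraries of the IMC and Vehicle groups overlapped and the log2 fold change was 0.15 (SE 0.14, 95% confidence interval -0.14 to 0.44, adjusted p = 0.537, limma). There 0 members were called by limma, edgeR or DESeq2 and 0 had an unadjusted p under 0.05, while 9.48% of all genes were called. The difference between the 2 IMC effects, ethanol-fed minus pair-fed, was 0.38 (SE 0.19, 95% confidence interval -0.02 to 0.79, adjusted p = 0.355, limma), so that a larger IMC effect under ethanol was not shown. That difference is also a comparison of library numbers 1 to 8 (Pair IMC and EtOH Vehicle) with 9 to 16 (Pair Vehicle and EtOH IMC), and the diet dependence and the numbering cannot be told apart. The 4 comparisons of single groups also set one range of numbers against the other, though no source names the numbers as a batch. Averages over both diets or both treatments carry both ranges of numbers equally, and there the IMC effect on Fmo5 was 0.34 (SE 0.10, adjusted p = 0.0144, limma). Ethanol-fed libraries all have odd numbers and pair-fed libraries even ones, so that diet and this numbering cannot be told apart in any ethanol comparison.

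Fmo1, the second most abundant member, moved by less, and in opposite directions with the 2 exposures. Its normalized counts were 3771, 3483, 4172 and 4534.5 in Pair Vehicle and 3524, 3132, 3547 and 3859.9 in Pair IMC. They were 4447, 5056.5, 4836 and 4497 in EtOH Vehicle and 3501, 4256, 3775 and 4289 in EtOH IMC. The EtOH Vehicle libraries were the high ones: each was above every EtOH IMC and every Pair IMC library, while Pair Vehicle overlapped all other groups. The means in that order were 3990.0 ± 459.9, 3516 ± 298, 4709 ± 289 and 3955 ± 383 (SD, n = 4).

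Averaged over both treatments, Fmo1 was 1.15-fold higher with ethanol (log2 fold change 0.21, SE 0.07, adjusted p = 0.0338, limma). Averaged over both diets, it fell by 0.22 on the log2 scale with IMC (SE 0.07, 95% confidence interval -0.36 to -0.07, adjusted p = 0.0243, limma). Neither call is firm. Leaving out 1 library at a time ended the ethanol call for 9 of 16 libraries (Pair Vehicle 10 and 12, Pair IMC 2, 4 and 6, EtOH Vehicle 3 and 5, EtOH IMC 11 and 15), with adjusted p up to 0.0695. It ended the IMC call for 3 (Pair Vehicle 16, Pair IMC 4, EtOH Vehicle 3), with adjusted p up to 0.0569. Over all 16 omissions the log2 fold changes ran from 0.17 to 0.24 for ethanol and from -0.25 to -0.19 for IMC. Quantile normalization ended the IMC call as well, at -0.14 (adjusted p = 0.104).

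Within single diets or treatments no Fmo1 difference passed the threshold. In ethanol-fed mice the IMC libraries did not overlap those of Vehicle and the log2 fold change was -0.25 (SE 0.10, adjusted p = 0.0681, limma), in a comparison where 12.9% of all genes were lower without overlap. In pair-fed mice it was -0.18 (SE 0.10, adjusted p = 0.258, limma). Ethanol gave 0.24 in Vehicle mice (adjusted p = 0.107) and 0.17 in IMC mice (adjusted p = 0.250, both limma).

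Fmo4, the scarcest member, was lower with ethanol. Its normalized counts were 333, 199.7, 259 and 237 in Pair Vehicle and 251, 304, 318 and 365 in Pair IMC. They were 198, 166, 200.1 and 204 in EtOH Vehicle and 172, 274, 233 and 219 in EtOH IMC. The 4 highest libraries of all were pair-fed, but in Vehicle and in IMC mice alike the lowest pair-fed library lay below the highest ethanol-fed one, so that the groups overlapped. The means were 257 ± 56.3, 309.6 ± 47.0, 192 ± 17.6 and 225 ± 41.9.

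Averaged over both treatments, Fmo4 fell by 0.43 on the log2 scale with ethanol (SE 0.11, 95% confidence interval -0.67 to -0.20, adjusted p = 0.00839, limma), or 0.740-fold. This call held when any 1 library was left out, but on the deposited scale without rescaling the difference was -0.24 with adjusted p = 0.0863. The single comparisons had the same sign and missed the threshold, with -0.40 in Vehicle mice (adjusted p = 0.104) and -0.47 in IMC mice (adjusted p = 0.0500425, limma). IMC gave 0.24 averaged over both diets (SE 0.11, adjusted p = 0.110, limma).

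With ethanol averaged over treatments, 2 members (Fmo1 and Fmo5) thus rose and 1 (Fmo4) fell, where 12.9% of all tested genes were called higher and 13.1% lower. That is 1619 genes higher and 1647 lower, and on the deposited scale the split was 4730 and 492. With IMC averaged over diets, 1 rose (Fmo5) and 1 fell (Fmo1), where 14.1% were called higher and 14% lower. For the difference between the IMC effects no member was called by limma, 0 by edgeR or DESeq2 and 0 at an unadjusted p under 0.05, while 1.11% of tested genes were called. The comparisons share groups, and their values for a member are not separate evidence.

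Fmo2 did not pass the threshold in any of the 7 comparisons. Its normalized counts were 841, 621, 951 and 818 in Pair Vehicle and 604, 743, 854 and 941 in Pair IMC. They were 668, 762, 652 and 807 in EtOH Vehicle and 1000.1, 886, 836 and 806 in EtOH IMC. The groups overlapped in every pair that was compared. The nearest to a difference was IMC in ethanol-fed mice, at 0.29 (SE 0.14, 95% confidence interval 0.00 to 0.58, adjusted p = 0.141, limma), the 1 comparison of 7 with an unadjusted p under 0.05 (0.049). For ethanol averaged over both treatments it was 0.02, with a 95% confidence interval of -0.19 to 0.22.

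**Figure D2:**
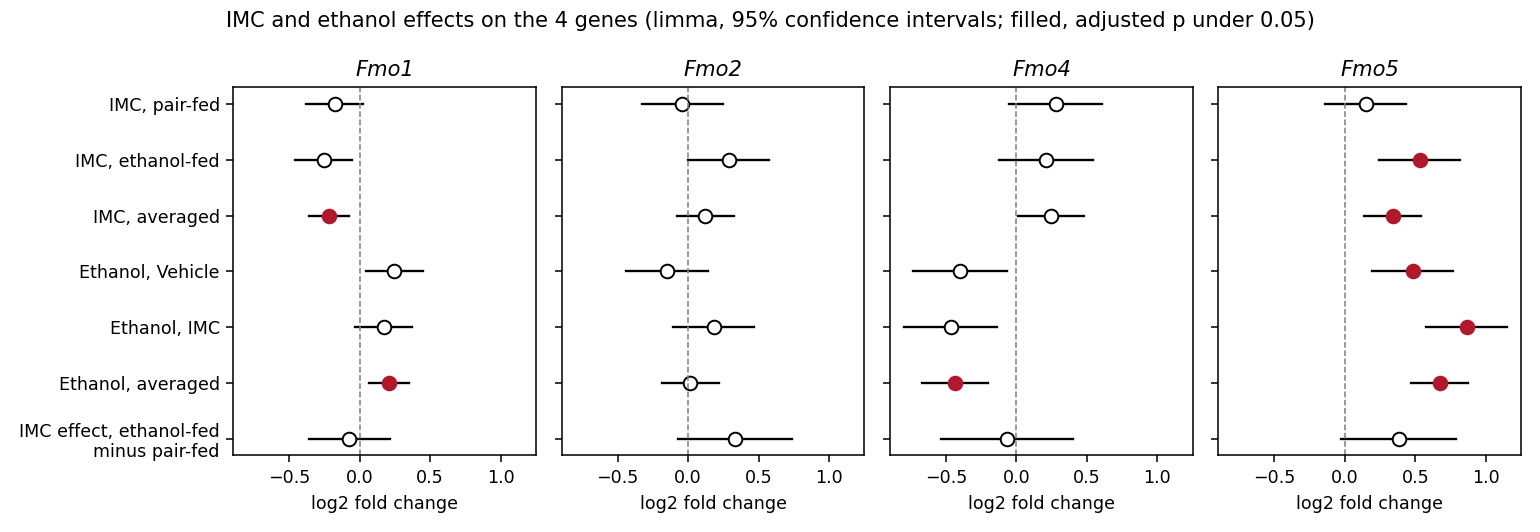
Log2 fold changes (horizontal axis) of the 4 genes in the 7 comparisons (rows), with 95% confidence intervals from limma and filled points where the adjusted p was under 0.05. Fmo5 is filled in 5 rows, from 0.34 to 0.87, Fmo1 in 2 rows of opposite sign, Fmo4 in 1 and Fmo2 in none.

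These shifts changed the makeup of the FMO transcript pool. The summed level of the 4 genes per kilobase was 2051 ± 114 in Pair Vehicle, 2136 ± 311 in Pair IMC, 2618 ± 261 in EtOH Vehicle and 3274 ± 154 in EtOH IMC (SD, n = 4). The EtOH IMC libraries, at 3179 or more, were above every other library, the highest of which reached 2829. From Pair Vehicle to EtOH Vehicle, Fmo5 went from 1205 to 1690.1 and Fmo1 from 633 to 747 normalized reads per kilobase. The share of Fmo5 in the sum was 58.7% ± 4.09 in Pair Vehicle, 63.0% ± 5.10 in Pair IMC, 64.4% ± 2.61 in EtOH Vehicle and 74.1% ± 2.46 in EtOH IMC. The share of Fmo1 was 30.8% ± 2.74 in Pair Vehicle, 26.4% ± 2.67 in Pair IMC, 28.7% ± 2.40 in EtOH Vehicle and 19.2% ± 2.22 in EtOH IMC. The sum is one of transcripts and says nothing of TMA oxygenation, since the enzymes differ in substrate.

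The ratio of Fmo5 to Fmo1 inside a library does not depend on how libraries were scaled. Per kilobase it ranged from 1.67 to 2.38 in Pair Vehicle, 2.06 to 3.12 in Pair IMC, 1.96 to 2.64 in EtOH Vehicle and 3.38 to 4.49 in EtOH IMC. The EtOH IMC libraries were thus again apart from the other 12, and the other 3 groups overlapped. The ratio of Fmo5 to Fmo4 separated the diets instead, though narrowly, at 11.8 to 25.76 in the 8 pair-fed libraries and 25.82 to 51.7 in the 8 ethanol-fed ones.

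**Figure D3:**
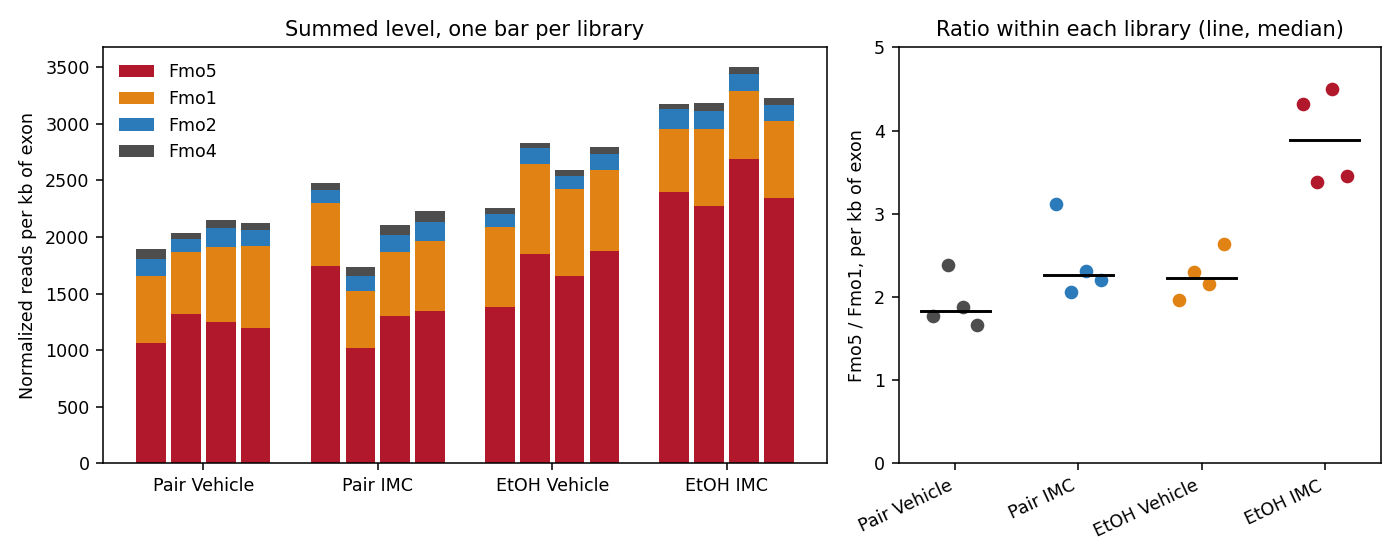
Left, normalized reads per kilobase of exon of the 4 genes stacked in each library (1 bar per library, in order of library number within a group, axis from 0). Right, the ratio of Fmo5 to Fmo1 per kilobase in each library, with the group median as a line; the EtOH IMC libraries start at 3.38 and no other library exceeds 3.12.

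Over the 16 libraries the members did not follow one another closely. Pearson correlations of their log2 levels ran from -0.50 (Fmo4 and Fmo5) to 0.29 (Fmo2 and Fmo4), and after group means were taken out from -0.42 to 0.41. These are descriptions over libraries that share 4 group means and a common scaling. In deviations from the group means, the 3 pairs on chromosome 1 had correlations of 0.28, 0.30 and 0.41, and the pairs with Fmo5 0.19, -0.19 and -0.42. Of the 3 on chromosome 1, Fmo1 rose and Fmo4 fell with ethanol averaged over treatments, and Fmo2 was not called.

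Other genes within 250 kb were set beside the members. On chromosome 1, Mettl13, Vamp4 and Prrc2c were not called for ethanol averaged over treatments, with log2 fold changes of -0.11 to -0.02. Mettl13 rose with IMC in ethanol-fed mice (0.87, adjusted p = 0.00222) and averaged over diets (0.41, adjusted p = 0.0195, limma), and Vamp4 and Prrc2c were not called for either. Prkab2, a regulatory subunit of AMP-activated protein kinase, starts 2.91 kb beyond Fmo5 on the same strand. Like Fmo5 it rose with IMC averaged over diets (0.57, adjusted p = 0.001, limma). In pair-fed mice it rose by 0.79 with IMC (adjusted p = 0.00492), where Fmo5 was not called, and in ethanol-fed mice it gave 0.35 (adjusted p = 0.113, limma), where Fmo5 rose. With ethanol in IMC mice it fell by 0.47 (adjusted p = 0.0466, limma), a call lost on the deposited scale (-0.28, adjusted p = 0.185) and when any of 9 libraries was left out (Pair IMC 2, 4, 6 or 8, EtOH Vehicle 3 or 5, EtOH IMC 9, 11 or 15, adjusted p up to 0.117). Sec22b, a vesicle trafficking protein 246 kb away, rose by 0.34 with ethanol averaged over treatments (adjusted p = 0.000669, limma). Chd1l and Pde4dip were not called for either average.

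The Fmo5 promoter window of RefSeq (GRCm38.p6) begins 35 bases before the earliest annotated start of the gene. It is shown because Fmo5 carried the largest changes, with the GC box GGGCGG in capitals.
Fmo5, chr3:97628769-97628803, plus strand: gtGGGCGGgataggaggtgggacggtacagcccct
On both strands, GGGCGG was found in 35.7% of the 32851 promoter windows of 300 bases (250 before and 50 after a start), CCAAT in 37.4% and TATAAA in 13.6%. The Fmo5 window held each of these once. The AHR core GCGTG (32.4% of windows) was in none of the windows of Fmo2, Fmo4 and Fmo5, nor was GTTAAT (7.10%), and TTGCNNAA (10.8%) was in both windows of Fmo2. Fmo4 had 1 CCAAT. Fmo1 had no entry.

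Among 8325 genes with a mean of at least 100, the levels most like those of Fmo5 were those of Nqo1, an NADPH-dependent quinone reductase (Pearson r = 0.93 over the 16 libraries). Next were Acox2, a peroxisomal oxidase of bile acid and branched fatty acid side chains (0.92), and the glutamyl-prolyl tRNA synthetase Eprs (0.91). Nqo1 averaged 142 ± 11.8 normalized counts in Pair Vehicle, 164 ± 8.92 in Pair IMC, 281 ± 73.8 in EtOH Vehicle and 520.2 ± 69.0 in EtOH IMC, the same order of groups as Fmo5. It rose 0.94 with ethanol in Vehicle mice (adjusted p = 0.00142), 1.65 in IMC mice (adjusted p = 3.45e-06) and 0.92 with IMC in ethanol-fed mice (adjusted p = 0.000576, limma). Acox2 rose with ethanol averaged over treatments and was not called for IMC averaged over diets (log2 fold change 0.16, adjusted p = 0.135, limma).

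Fmo1 was followed most closely by Anxa4, a calcium-dependent membrane-binding protein (r = 0.91), Aco1, the cytosolic aconitase and iron regulatory protein (0.90), and the short-chain dehydrogenase Dhrs1 (0.88). As with Fmo1, Aco1 was higher with ethanol (log2 fold change 0.23, adjusted p = 0.013) and lower with IMC (-0.26, adjusted p = 0.00601, limma) in the averaged comparisons. Fmo4 was followed by Fbxo8 (0.92), Cul4b (0.91) and Dcaf6 (0.90), all known as parts of ubiquitin ligases or their partners. Dcaf6 fell from 919 ± 68.6 and 1084 ± 109 in Pair Vehicle and Pair IMC to 651 ± 52.5 and 733 ± 94.1 in EtOH Vehicle and EtOH IMC. The genes most like Fmo2 were Sh3glb1 (0.73), Atp1b1 (0.70) and Papolg (0.70), weaker than for the other members. All of these correlations describe 16 libraries that share 4 group means, and were the highest of the 8325 computed for each member. The group differences given for Nqo1, Acox2, Aco1 and Dcaf6 come from the libraries by which these genes were picked, and are not separate evidence.

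**Figure D4:**
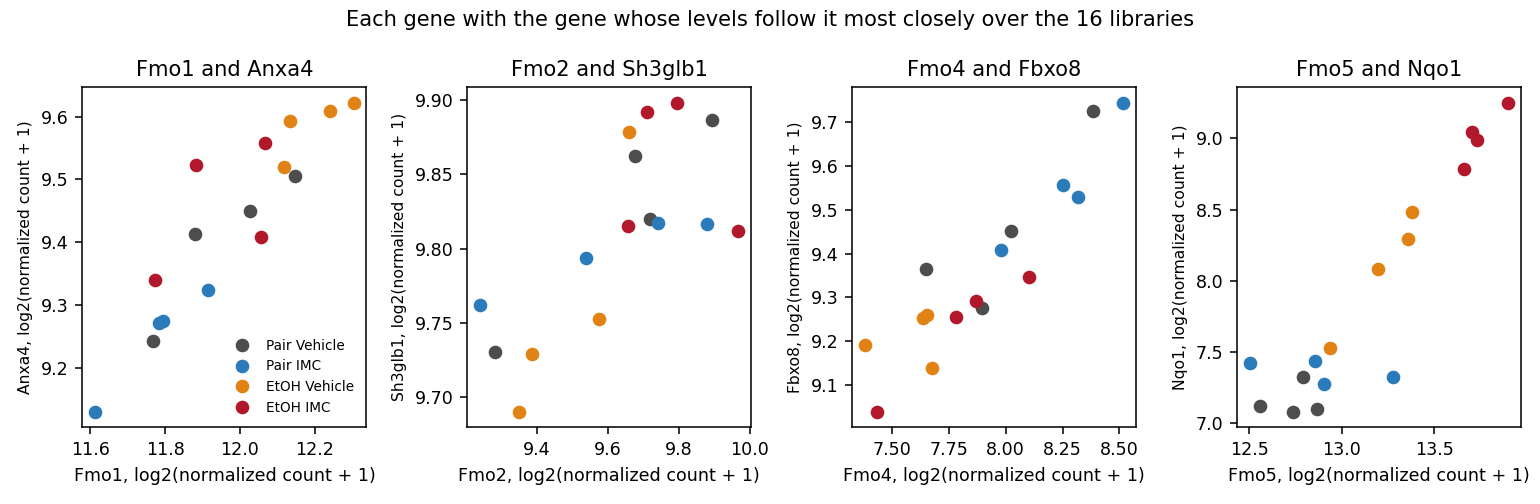
Log2(normalized count + 1) of each member (horizontal axis) against that of the gene most like it (vertical axis), 1 point per library coloured by group. Fmo5 and Nqo1 (r = 0.93) both rise from the pair-fed libraries through EtOH Vehicle to EtOH IMC, while the points of Fmo2 and Sh3glb1 (r = 0.73) are mixed across groups.

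Genes that make or use the substrates of this pathway were counted beside the members. Of 18 tested genes that handle choline, betaine, carnitine and TMA, 9 fell and none rose with IMC averaged over diets (median log2 fold change -0.25, against -0.01 for all tested genes, of which 14% fell). In ethanol-fed mice, where 11.1% of all genes fell, 8 of the 18 did, among them Bhmt, the betaine-homocysteine methyltransferase (-2.10, adjusted p = 0.00127), Tmlhe, the first enzyme of carnitine synthesis (-0.84, adjusted p = 0.00257), and Aldh9a1, an aldehyde dehydrogenase of the same route (-0.76, adjusted p = 0.00031, limma). With ethanol in Vehicle mice 4 of the 18 rose and none fell (median 0.17), where 6.33% of all genes rose. In IMC mice none rose and 2 fell (median -0.16), where 8.57% of all genes fell, and 2 of 18 is near that share. One of these 2 was Dmgdh, a mitochondrial dehydrogenase of betaine breakdown (-0.73, adjusted p = 0.00265, limma). Averaged over treatments 3 rose and none fell, where 12.9% of all genes rose, and 3 of 18 is near that share.

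FMOs need flavin and NADPH. The counts that follow stand beside all tested genes, of which 12.9% rose and 13.1% fell with ethanol averaged over treatments and 14.1% rose and 14% fell with IMC averaged over diets, and a share near these is no result about a list. Of 11 tested genes for their supply, 1 rose and 3 fell with ethanol averaged over treatments, and 1 rose and 1 fell with IMC averaged over diets. In IMC mice 1 of the 11 rose and 3 fell with ethanol, where 7.86% of all genes rose and 8.57% fell. Me1, the cytosolic malic enzyme (-1.20, adjusted p = 0.000893), and G6pdx, the first enzyme of the pentose phosphate pathway (-1.17, adjusted p = 0.00615, limma), fell. Pgls rose (0.45, adjusted p = 0.0425, limma), a call lost when any of 9 libraries was left out (adjusted p up to 0.126). Fmo5 rose by 0.87 in the same libraries. The Pair IMC means of Me1 (6022 ± 1121) and G6pdx (187 ± 110) were above those of Pair Vehicle (3645 ± 603 and 92.8 ± 21.2). In EtOH Vehicle and EtOH IMC, Me1 averaged 2384 ± 387 and 2702 ± 983, and G6pdx 79.9 ± 10.8 and 74.8 ± 10.4. With ethanol in Vehicle mice 0 of the 11 rose and 1 fell, where 794 of 12537 genes rose and 694 fell. Among 10 other enzymes of amines and N-oxides, 4 rose and 2 fell with ethanol and 3 rose and 3 fell with IMC. Aox1, an aldehyde oxidase, rose with IMC in pair-fed mice (1.41, adjusted p = 0.00013) and ethanol-fed mice (0.83, adjusted p = 0.00237), and Maob, the monoamine oxidase B, fell in both (-0.35, adjusted p = 0.0228, and -0.42, adjusted p = 0.0037, limma). The pair-fed call of Maob was lost when any of 4 libraries was left out (Pair Vehicle 10 or 14, Pair IMC 4 or 6, adjusted p up to 0.0856, limma).

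Of 15 transcription factors and nuclear receptors that act in liver, 3 rose and 3 fell with IMC averaged over diets, and 1 rose and 4 fell with ethanol. The hepatocyte factor Hnf4a rose with IMC in both diets (0.71, adjusted p = 0.00322, and 0.62, adjusted p = 0.00298), and the oestrogen receptor Esr1 fell in both (-0.95, adjusted p = 0.00296, and -0.85, adjusted p = 0.00236, limma). Of 6 tested targets of the aryl hydrocarbon receptor, 2 rose and 1 fell with ethanol, and 1 rose with IMC, which was Nqo1. Of 17 genes higher in female liver, 9 fell and 1 rose with IMC, and 8 fell and 4 rose with ethanol. Of 10 tested genes higher in male liver, 1 rose and 3 fell with IMC and 2 rose with ethanol. Of 12 pericentral hepatocyte genes, 4 rose and 4 fell with ethanol and 1 rose and 3 fell with IMC, and of 12 periportal genes 5 rose with ethanol and 2 rose and 2 fell with IMC.

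Markers of other liver cells were counted in the same way. With ethanol averaged over treatments, 4 of 6 endothelial and 2 of 6 stellate cell and fibroblast markers rose, and 1 of 6 hepatocyte markers rose and 1 fell. No Kupffer cell marker of 6, bile duct marker of 5 or tested lymphocyte marker (1 of 4) was called for either average, and with IMC averaged over diets 2 stellate markers fell and 1 hepatocyte marker (Hnf4a) rose. The summed stellate list ran from 2803 to 3794 normalized counts in Pair Vehicle, 2850 to 3529 in Pair IMC, 4084 to 4756 in EtOH Vehicle and 2627 to 3535 in EtOH IMC, and the endothelial list from 2484 to 3212, 2591 to 3199, 3066 to 3544 and 2692 to 3548. The hepatocyte sum is mostly Alb. It ran from 994994 to 1678768 in Pair Vehicle and from 1510244 to 1613991 in Pair IMC. In EtOH Vehicle it ran from 912011 to 1040179 and in EtOH IMC from 859334 to 1163408, so that these 2 groups overlapped. Every Pair IMC sum lay above every EtOH IMC sum, while 0 of the 6 markers were called for ethanol in IMC mice (list median log2 fold change -0.32). Of the 6 hepatocyte markers, 1 was called with IMC in ethanol-fed mice (list median log2 fold change 0.09). This was Hnf4a, which went from 8036 ± 1062 normalized counts in EtOH Vehicle to 12314 ± 842 in EtOH IMC without overlap. The part of cell composition in the FMO values was not tested.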

How the data were processed

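RNA from 16 mouse livers was sequenced by the authors with a strand-marking kit, and reads were aligned to mm10 with STAR after Trim Galore and FastQC, per the labels and the methods. The counting tool and its use of strand are not given in the sources used here, and the labels and methods differ on paired or single ends. The deposited signal is each gene's read count divided by a size factor per library, with the authors naming edgeR upper quantile normalization. Whole reads were recovered by dividing by the value of 1 read (0.906 to 1.18), with 100% of values within 0.01 of a whole number. For library 15 the value of 1 read was 1.01, too close to 1 for a check of this recovery.

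All 16 columns were rescaled by their median ratio, because deposited values differed between diets by 0.19 (log2, median gene). Genes with at least 10 in at least 4 libraries were tested with limma 3.58.1 (trend, log2(value + 1), two-sided, Benjamini-Hochberg, 0.05), checked on simulated data. Gene positions and lengths came from GENCODE vM21 (24026 of 24082 identifiers matched). Other tools were edgeR 4.0.16 and DESeq2 1.42.0 under R 4.3.3 and Python with pandas and Biopython. The size of chi-square per gene between replicates, 5.60 to 44.0, showed no library deposited as a copy of another. The genes named are the members, genes within 250 kb, the 3 genes most correlated with each member and, per list and comparison, up to 3 called genes whose groups did not overlap. The members and gene lists were chosen with earlier results of these data known. Not every gene or sequence of this region is reported here.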

Additional observations from a re-analysis of the deposited data

Results flagged for a closer look

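Of the 16 sets of 4 libraries (4 genes in 4 groups), 1 had a library far from the others: Fmo4 in EtOH Vehicle, where library 3 had 165.7 normalized counts and the other libraries 198 to 204. The gap was 0.855 of the range of the group, above Dixon's 95% critical value for 4 samples, and chance alone flags about 1 in 20 such sets. Fmo4 was called lower with ethanol averaged over treatments with and without this library. No member differed between diets in its IMC effect by the test of that difference.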

How the results depend on the processing

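Fmo5 kept its direction and its call for ethanol in IMC mice, ethanol averaged over treatments, IMC in ethanol-fed mice and IMC averaged over diets under every alternative run: other scalings, pseudocounts, filters, edgeR, DESeq2 and each library left out. Fmo4 kept its ethanol call except on the deposited scale. The remaining calls of members moved as follows, and the cause was not tested.

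Without rescaling (deposited values), the log2 fold change of Fmo1 was 0.43 for ethanol in Vehicle mice (adjusted p = 0.00376) and 0.36 in IMC mice (adjusted p = 0.0102), and that of Fmo2 was 0.37 in IMC mice (adjusted p = 0.0485). Fmo2 turned to 0.040 for ethanol in Vehicle mice (not called either way), Fmo4 missed the threshold at -0.24 for ethanol averaged over treatments, and the EtOH Vehicle mean of Fmo1 was 5028, more than 1 SD higher; the other 15 of 16 group means moved by less. Quantile normalization ended the calls of Fmo5 for ethanol in Vehicle mice (0.38, adjusted p = 0.0557) and of Fmo1 for IMC averaged over diets (-0.14, adjusted p = 0.104), called Fmo1 for ethanol in IMC mice (0.26, adjusted p = 0.0498) and turned its diet difference to 0.032. Fmo4 for ethanol in IMC mice passed with a pseudocount of 5 (-0.46, adjusted p = 0.0498), a mean of at least 100 (-0.47, adjusted p = 0.0435) and DESeq2 (-0.46, adjusted p = 0.0359). DESeq2 also called Fmo1 for IMC in ethanol-fed mice (-0.25, adjusted p = 0.0448). edgeR without library 15, whose value of 1 read was close to 1, ended the ethanol call of Fmo1 (0.19, adjusted p = 0.0622). That alternative was chosen after seeing the data.

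Leaving out 1 library at a time gave, beside the ranges already printed for called members, -0.57 to -0.35 for Fmo4 and ethanol in IMC mice, -0.51 to -0.27 for Fmo4 and ethanol in Vehicle mice, 0.19 to 0.31 for Fmo4 and IMC averaged over diets, and -0.20 to 0.054 for its diet difference. Called ranges were 0.42 to 0.58 for Fmo5 and ethanol in Vehicle mice, 0.17 to 0.24 for Fmo1 and ethanol, and -0.25 to -0.19 for Fmo1 and IMC. Without single libraries Fmo4 was called for ethanol in IMC mice (4 libraries), ethanol in Vehicle mice (1) and IMC averaged over diets (2). Fmo2 changed sign, never called, with -0.044 to 0.063 for ethanol averaged over treatments (below 0 without Pair Vehicle 12, Pair IMC 2, EtOH Vehicle 7 or EtOH IMC 9) and -0.16 to 0.077 for IMC in pair-fed mice (above 0 without Pair Vehicle 14 or Pair IMC 2). The diet difference of Fmo4 was above 0 without Pair Vehicle 12, Pair IMC 8 or EtOH IMC 9.

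On recovered whole reads edgeR called 117 to 3563 genes a comparison, and limma 139 to 3528 on the same scale of rescaled values. The number called by limma was 1488 for ethanol in Vehicle mice, 2060 in IMC mice and 3266 averaged, and 3000, 3624 and 5222 on the deposited scale. For the diet difference it was 139, against 80 with no filter, 82 with no mean-variance trend, 340 with DESeq2 and 72 with edgeR without library 15, which called 1352 for ethanol in IMC mice. For IMC in pair-fed mice it was 1189, and 672 with only the libraries compared. Leaving out 1 library gave 534 to 1441 for that comparison, 805 to 1595 and 1365 to 2214 for ethanol in Vehicle and IMC mice, and 54 to 164 for the difference. The fit on only the libraries compared gives no value for averages or the difference. Of 163 calls of other named genes, 0 of 4489 values under an alternative turned direction and 396 missed the threshold.

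No paired analysis was possible because the groups share no replicate numbers. With 4 libraries a group, differences of Fmo2 or Fmo4 smaller than their intervals were not detectable, and Fmo4, with 155 to 323 reads per library, has the widest counting error.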
